A study of Mus musculus with 9 samples.

Results

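The 10 genes described here carry the insulin signal from the cell surface to glucose uptake and fat storage: the receptor Insr, its docking proteins Irs1 and Irs2, the phosphoinositide 3-kinase subunit Pik3r1, the kinases Akt1 and Akt2, the glucose transporter Slc2a4 (GLUT4), its traffic regulator Tbc1d4 (AS160), the transcription factor Foxo1 and the phosphodiesterase Pde3b. They were chosen by symbol, with earlier results of these data known. Among the 24013 gene symbols of the deposited values, all 10 of 10 were found. All 10 passed the filter on low values, which asked for an RPKM of 1 or more in 3 or more of the 9 libraries. RPKM is the number of reads per kilobase of exon and per 1000000 assigned reads, so levels of different genes can be set side by side per length.

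RNA was measured in adipocytes made in culture from the inguinal stromal vascular fraction, the precursor-rich cells of a mouse subcutaneous fat depot that can form beige, heat-producing adipocytes. The groups were C57BL/6J (B6), a strain the series calls obesity prone, 129X1/SvJ (129), which it calls resistant, and their F1 offspring, with 3 libraries each, all at day 7. Every group had the same treatment: from confluence on, 850 nM insulin, 1 µM rosiglitazone and the thyroid hormone T3 at 1 nM in 10% serum, joined for the first 48 hours by dexamethasone (1 µM), indomethacin (125 nM) and isobutylmethylxanthine (0.5 mM). No group was kept without insulin, so the values are levels under continuous insulin and not a response to it. The labels give no age or sex, name no mother strain for the F1, and leave unsaid if libraries within a group stem from different mice or dishes, so a p-value here speaks only of how these libraries scatter, which may be technical.

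Insulin binds its receptor, a tyrosine kinase, which phosphorylates the IRS proteins. These recruit phosphoinositide 3-kinase, and the lipid it makes activates AKT at the membrane. In adipocytes AKT2 is the form most tied to glucose uptake: it phosphorylates TBC1D4, a brake on RAB proteins, and so lets vesicles with GLUT4 reach the cell surface. AKT also keeps FOXO1 out of the nucleus and activates PDE3B, which breaks down cyclic AMP and so restrains lipolysis.

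Depth was 19130022 to 28473083 assigned reads in the 6 parental libraries and 39686986 to 53410947 in the 3 F1 libraries. The fewest reads behind any member in any library were 531, for Irs2. Among the 11 adipocyte markers, the hormone Adipoq had 1259 to 1587 RPKM and the lipid droplet protein Plin1 416.5 to 504.1, while the hormone Lep had only 1.03 to 1.43. The 6 smooth muscle markers summed to 130.4 to 145.2 RPKM, 129 to 138.1 and 101 to 107.9 in B6, 129 and F1. Of the 6, 4 were lower in 129 and 5 lower in F1 than in B6, beside 21.7% and 20.2% of all genes. Acta2 and Tagln made up most of the sum, and Tagln had 57.0 to 68.0 RPKM, 64.0 to 71.5 and 49.8 to 54.0 in that order. Myh11, a low gene, had 3.18 to 4.45, 1.39 to 1.70 and 1.29 to 1.60. The 6 endothelial markers summed to 4.95 to 5.73, 2.77 to 3.12 and 3.93 to 3.98 RPKM in the same order. Marker genes of progenitors and fibroblasts, 11 in all, summed to 2885 to 3186 RPKM for B6, 4123 to 4382 for 129 and 2815 to 3170 for F1. Of the 10 progenitor markers tested, 6 were higher and 1 lower in 129 than in B6, beside 15.9% and 21.7% of all genes. In F1, 1 was higher and 4 were lower than in B6, beside 11.0% and 20.2% of all genes. Against 129, 0 were higher and 7 lower in F1, beside 12.0% and 15.7%. Cd34 had 16.2 to 17.1 RPKM in B6 and 11.2 to 11.8 in F1, while Col1a1 had 694.5 to 865.7 and 904.6 to 1058. The 9 macrophage markers summed to 42.96 to 53.91 RPKM for B6, 21.05 to 46.34 for 129 and 37.71 to 55.08 for F1, and the 7 skeletal muscle markers to 1.95 to 3.53, 3.36 to 4.11 and 2.96 to 3.61, of which Ckm, Myh4 and Myod1 were listed at 0 in all libraries and Acta1 was highest, at 1.3 to 2.88. In such bulk samples fewer cells of a type and less RNA per cell cannot be told apart.

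The order of the most abundant members was the same in the 3 groups: Akt2, Slc2a4, Pde3b, Pik3r1, Akt1 and then Insr, by mean RPKM. Akt2 led with 135.3 ± 4.50 RPKM in B6, 102.9 ± 1.41 in 129 and 123 ± 3.30 in F1 (SD, n = 3 each). Slc2a4 followed at 127 ± 10.5, 98.8 ± 3.59 and 121.5 ± 2.68. The libraries of these neighbours in the order overlapped in B6 and F1 and did not in 129. Irs1 was the lowest member in B6 (8.08 ± 0.0915) and Irs2 the lowest in 129 (5.92 ± 0.413) and F1 (6.55 ± 0.740). The lower 4 members changed places between the strains: Tbc1d4 led them in B6 and F1 and stood below Irs1 and Foxo1 in 129.

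**Figure D1:**
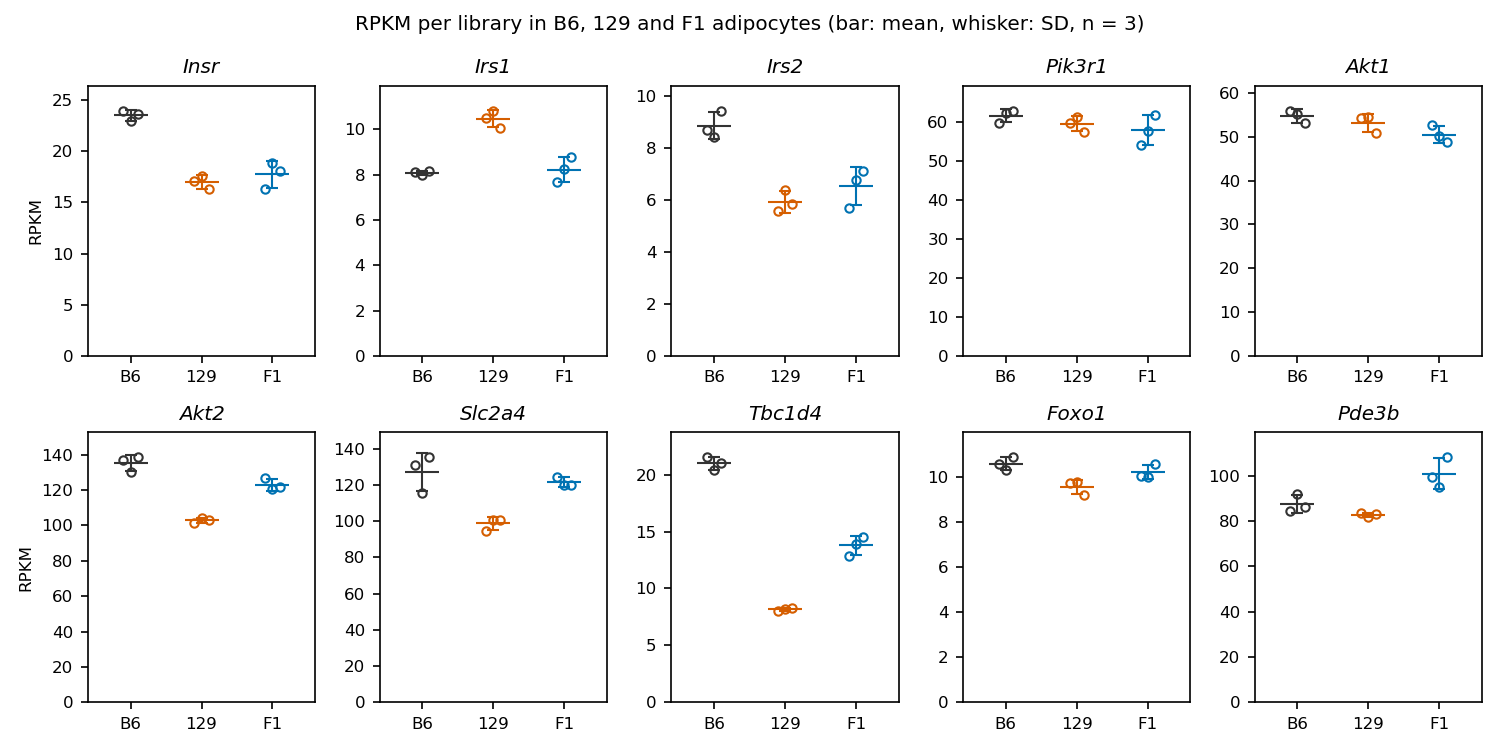
RPKM of the 10 genes in each library (circles) of B6, 129 and F1, with the group mean (bar) and SD (whisker, n = 3); every vertical axis starts at 0. Tbc1d4 has 3 separate levels, Insr and Irs2 are high in B6 alone, Irs1 is high in 129 alone, and Pde3b is highest in F1.

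The parental strains were compared first, with limma on log2(RPKM + 1) over all 11542 genes tested and Benjamini-Hochberg adjustment at a threshold of 0.05. In 129, 6 of the 10 members were lower than in B6 (Tbc1d4, Irs2, Insr, Akt2, Slc2a4 and Foxo1), 1 was higher (Irs1), and Pik3r1, Akt1 and Pde3b did not pass. Of all genes tested, 21.7% were lower and 15.9% higher. The median log2 difference of the members was -0.25, beside -0.03 for all genes. Since the members were chosen with earlier results of these data known, setting them beside all genes is no test of the set. In 8 of the 10 members the libraries of the 2 strains did not overlap, against 49.9% of all genes. A single gene's exact permutation test of 3 against 3 libraries cannot go below p = 0.1, and these 8 members reached that value.

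At the top of the pathway, Insr, the insulin receptor (mm9 chromosome 8, 3150922 to 3279617), was listed at 23.98, 22.94 and 23.68 RPKM in B6, at 17.05, 17.61 and 16.28 in 129, and at 16.31, 18.83 and 18.07 in F1. All B6 libraries lay above all others, and the 129 and F1 libraries were mixed. In 129 the level was 0.722 of that in B6 (log2 difference -0.45, SE 0.05, adjusted p = 8.13e-05), and in F1 it was 0.754 of B6 (-0.39, adjusted p = 3.93e-04). F1 and 129 differed by 0.06, with a 95% interval from -0.06 to 0.18 (adjusted p = 0.473). Igf1r, the receptor of insulin-like growth factor, went the other way, from 3.59 ± 0.114 RPKM in B6 to 4.41 ± 0.195 in 129 (log2 difference 0.24, adjusted p = 0.0212), a call lost without B6 replicate 1, B6 replicate 3 or 129 replicate 2. The ratio of Insr to Igf1r in a library was 6.20 to 6.82 for B6, 3.80 to 3.94 for 129 and 5.05 to 5.60 for F1, with no overlap between groups.

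The docking proteins Irs1 and Irs2, which couple the receptor to phosphoinositide 3-kinase, moved in opposite directions between the strains. Irs1 (chromosome 1, 82229680 to 82288014) had 8.11, 7.98 and 8.16 RPKM in B6, 10.5, 10.8 and 10.1 in 129, and 7.69, 8.23 and 8.76 in F1. It was 1.29-fold higher in 129 than in B6 (log2 difference 0.34, SE 0.05, adjusted p = 3.76e-04). F1 stayed near B6, at 1.02 of its level (0.02, interval -0.09 to 0.13), and was below 129 (-0.31, adjusted p = 0.00114). Irs2 (chromosome 8, 10986964 to 11008430) had 8.71, 8.44 and 9.45 RPKM in B6, 5.56, 6.37 and 5.83 in 129, and 5.72, 6.79 and 7.13 in F1. It fell to 0.668 of the B6 level in 129 (-0.51, SE 0.08, adjusted p = 3.63e-04) and to 0.738 in F1 (-0.39, adjusted p = 0.00313), while F1 and 129 differed by 0.12 (interval -0.05 to 0.29). The F1 level of Irs2 did not depart beyond the threshold from the midpoint of its parents on the log2 scale (-0.13, interval -0.28 to 0.01, adjusted p = 0.167). The balance of the pair turned over: the ratio of Irs1 to Irs2 was 0.863 to 0.945 for B6, 1.70 to 1.89 for 129 and 1.21 to 1.35 for F1. Irs3, a further docking protein that rodents express in fat, was lower in 129 like Irs2, with 12.3 ± 0.419 RPKM in B6 and 7.62 ± 0.863 in 129 (-0.63, adjusted p = 4.43e-05), and 10.6 ± 0.547 in F1. Of the exon bases of Irs2, 162 overlap the opposite-strand gene 9530052E02Rik. Whether counting used strand is not given in the sources used here, and that gene had 0.132 to 0.368 RPKM.

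Because Irs1 and Irs2 moved apart and Tbc1d4 fell most, the 250 bases upstream of their RefSeq starts are shown for these genes (GRCm38.p6, minus strand: Irs1 chr1:82291440-82291689, Irs2 chr8:11008930-11009179, Tbc1d4 chr14:101609192-101609441). They are sequences of the C57BL/6J reference, and the 129 sequence was not used here. Capitals mark matches, on either strand, to the E-box CACGTG, the GC box GGGCGG and the CCAAT box CCAAT.
Irs1: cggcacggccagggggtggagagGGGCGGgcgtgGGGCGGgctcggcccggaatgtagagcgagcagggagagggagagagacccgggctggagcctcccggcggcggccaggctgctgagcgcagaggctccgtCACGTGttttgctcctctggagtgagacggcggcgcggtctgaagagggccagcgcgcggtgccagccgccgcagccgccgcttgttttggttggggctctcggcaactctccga
Irs2: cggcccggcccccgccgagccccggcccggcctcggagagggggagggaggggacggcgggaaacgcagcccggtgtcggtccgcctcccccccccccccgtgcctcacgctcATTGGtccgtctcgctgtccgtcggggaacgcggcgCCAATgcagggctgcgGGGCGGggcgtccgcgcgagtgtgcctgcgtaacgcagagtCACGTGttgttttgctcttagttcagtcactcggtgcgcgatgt
Tbc1d4: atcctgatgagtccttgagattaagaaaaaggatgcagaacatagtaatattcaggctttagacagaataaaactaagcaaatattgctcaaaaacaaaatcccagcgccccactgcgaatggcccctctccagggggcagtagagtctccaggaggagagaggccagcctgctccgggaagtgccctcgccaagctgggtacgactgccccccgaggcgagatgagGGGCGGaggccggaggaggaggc
The Irs1 and Irs2 windows each held 1 E-box, which 6.02% of the 32851 RefSeq windows of this length held. Irs1 had 2 GC boxes and Irs2 and Tbc1d4 had 1 each (32.7% of all windows had at least 1), and Irs2 had 2 CCAAT boxes (33.8% of windows). The FOXO core GTAAACA (3.17% of windows) and the NFI core TTGGCA (12.3%), whose reverse strand can share bases with CCAAT, were also searched and are not in these 3 windows. G and C made up 72.4% of the Irs1, 72.8% of the Irs2 and 54.8% of the Tbc1d4 window, beside a median of 52.4%. RefSeq windows were matched for 7 of the 10 members, and Insr, Slc2a4 and Pde3b had no entry.

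Pik3r1, the regulatory subunit that binds phosphorylated IRS (chromosome 13, 102450716 to 102538172), had 59.7, 62.1 and 62.9 RPKM in B6, 59.8, 61.2 and 57.4 in 129, and 54.0, 57.7 and 61.8 in F1. The libraries of all groups overlapped. The difference of 129 from B6 was -0.05, with an interval from -0.16 to 0.07, and no comparison passed (adjusted p = 0.211 to 0.607). Its relative Pik3r2 did not differ between the parents beyond their spread (-0.01, adjusted p = 0.809) but was lower in F1 than in B6 (-0.19, adjusted p = 0.00629).

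Of the AKT kinases, Akt2 differed between the parents and Akt1 did not pass. Akt2 (chromosome 7, 28376579 to 28424472) had 137.2, 130.2 and 138.6 RPKM in B6, 101.6, 104.4 and 102.8 in 129, and 126.7, 120.5 and 121.7 in F1. The 3 groups did not overlap, with F1 between its parents. In 129 Akt2 was at 0.760 of the B6 level (log2 difference -0.39, SE 0.04, adjusted p = 3.16e-05), and F1 was above 129 by 0.25 (adjusted p = 0.00125). F1 was below B6 by a smaller amount (-0.14, adjusted p = 0.0280), a call lost in 6 of 16 other settings, among them values rescaled by median-of-ratios size factors (-0.08, adjusted p = 0.179; range over the settings 0.0127 to 0.179), a fit of only these 2 groups, and leaving out B6 replicate 1 or 3 or F1 replicate 2 or 3. Akt1 (chromosome 12, 113892032 to 113912487) had 56.0, 55.2 and 53.0 RPKM in B6, 54.3, 54.5 and 50.8 in 129, and 52.6, 50.1 and 48.8 in F1. Its differences were -0.04 for 129 against B6 (interval -0.14 to 0.06) and -0.11 for F1 against B6 (interval -0.21 to -0.01, adjusted p = 0.0783). The latter passed with the replicate block (adjusted p = 0.0480) and without F1 replicate 1 (0.0471), in a range of 0.0471 to 0.358. The ratio of Akt2 to Akt1 was 2.36 to 2.61 for B6, 1.87 to 2.02 for 129 and 2.40 to 2.50 for F1, so 129 lay below both other groups.

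Slc2a4, the insulin-responsive glucose transporter GLUT4 (chromosome 11, 69755788 to 69761692), had 130.9, 115.4 and 135.4 RPKM in B6, 94.6, 100.9 and 100.7 in 129, and 124.6, 119.9 and 120 in F1. Every 129 library lay below every other, while F1 fell inside the range of B6, whose replicate 2 was the lowest of both. The level in 129 was 0.776 of that in B6 (log2 difference -0.36, SE 0.06, adjusted p = 7.47e-04), and F1 was 1.23-fold above 129 (0.30, adjusted p = 0.00415). F1 and B6 differed by -0.06 (interval -0.19 to 0.07, adjusted p = 0.452). Slc2a1, the transporter GLUT1 that does not depend on insulin, was higher in 129 (44.9 ± 1.23 RPKM) and F1 (46.2 ± 0.884) than in B6 (35.4 ± 4.51), with log2 differences of 0.34 and 0.38 (adjusted p = 0.00378 and 0.00280). The ratio of Slc2a4 to Slc2a1 was accordingly 2.84 to 4.21 for B6, 2.12 to 2.30 for 129 and 2.57 to 2.67 for F1. Patterns were compared over 7609 other genes with a mean RPKM of at least 5, leaving out predicted genes, RIKEN clones, small RNAs and symbols that read as dates. Among them, the 3 whose log2 values ran most like Slc2a4 over the 9 libraries were Rdh13 (Pearson r = 0.991), Narfl (0.988) and Cs, citrate synthase (0.988). For Irs1 they were Clec16a (0.981), Man2a2 (0.978) and Prkcd (0.975). These r describe 9 libraries in 3 groups and share the group differences.

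Tbc1d4, the AKT substrate that holds GLUT4 vesicles back (chromosome 14, 101841577 to 102008408), showed the largest difference of the 10. It had 21.5, 20.4 and 21.0 RPKM in B6, 7.99, 8.23 and 8.29 in 129, and 12.8, 13.9 and 14.6 in F1. The 3 groups were far apart, with F1 in the middle. The level in 129 was 0.389 of that in B6 (log2 difference -1.26, SE 0.05, adjusted p = 1.75e-08), and 69 of the 11542 genes tested had a lower value, 0.598% of them. F1 was at 0.656 of B6 (-0.58, adjusted p = 1.72e-05) and 1.69-fold above 129 (0.69, adjusted p = 6.26e-06). Its relative Tbc1d1 had 4.06 ± 0.398, 4.49 ± 0.185 and 4.06 ± 0.237 RPKM and passed in no comparison, apart from 129 against B6 once B6 replicate 2 was left out. The ratio of Tbc1d4 to Tbc1d1 was 4.53 to 5.64 for B6, 1.71 to 1.91 for 129 and 3.34 to 3.47 for F1. Slc2a4 fell less than its regulator: a library held 5.65 to 6.43 times as much Slc2a4 as Tbc1d4 in B6, 11.8 to 12.3 times in 129 and 8.25 to 9.70 times in F1.

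**Figure D2:**
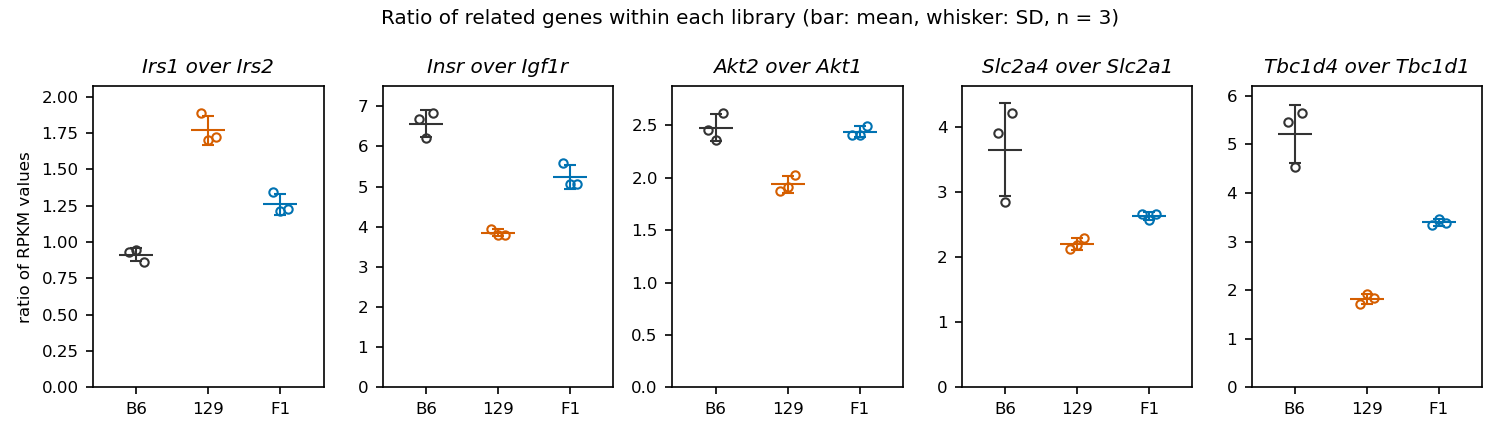
Ratio of the RPKM of related genes in each library (circles), with group mean (bar) and SD (whisker, n = 3), for B6, 129 and F1. The ratio of Irs1 to Irs2 passes from below 1 in all B6 libraries to 1.70 or more in 129, and the other 4 ratios are lowest in 129.

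Foxo1, the transcription factor that AKT inhibits (chromosome 3, 52072259 to 52154031), had 10.6, 10.3 and 10.9 RPKM in B6, 9.73, 9.78 and 9.21 in 129, and 10.1, 10.0 and 10.6 in F1. It was slightly lower in 129 than in B6 (0.904 of its level, log2 difference -0.13, SE 0.04, adjusted p = 0.0331). That call was lost in 7 of 16 other settings: after median-of-ratios rescaling (-0.10, adjusted p = 0.104), with the replicate block (0.0554), and without B6 replicate 1 or 3 or any one 129 library (adjusted p = 0.0306 to 0.123 over all settings). F1 did not differ from either parent beyond the threshold (adjusted p = 0.427 and 0.177). Foxo3, its relative, passed in no comparison.

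Pde3b, the insulin-activated enzyme that breaks down cyclic AMP (chromosome 7, 121558768 to 121681451), had 84.2, 91.7 and 86.3 RPKM in B6, 83.6, 81.8 and 83.0 in 129, and 99.4, 95.1 and 108 in F1. All F1 libraries were above all parental ones, and the parents lay close together without overlap (-0.08, interval -0.19 to 0.04, adjusted p = 0.283). F1 was 1.15-fold above B6 (log2 difference 0.20, SE 0.05, adjusted p = 0.0143) and 1.22-fold above 129 (0.28, adjusted p = 0.00302). The rise over B6 missed the threshold without B6 replicate 1 (0.18, adjusted p = 0.0626; range 0.00502 to 0.0626). Pde3a, the other PDE3 gene, went down in F1 against B6, from 2.50 ± 0.173 to 1.75 ± 0.327 RPKM (-0.35, adjusted p = 0.00888).

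**Figure D3:**
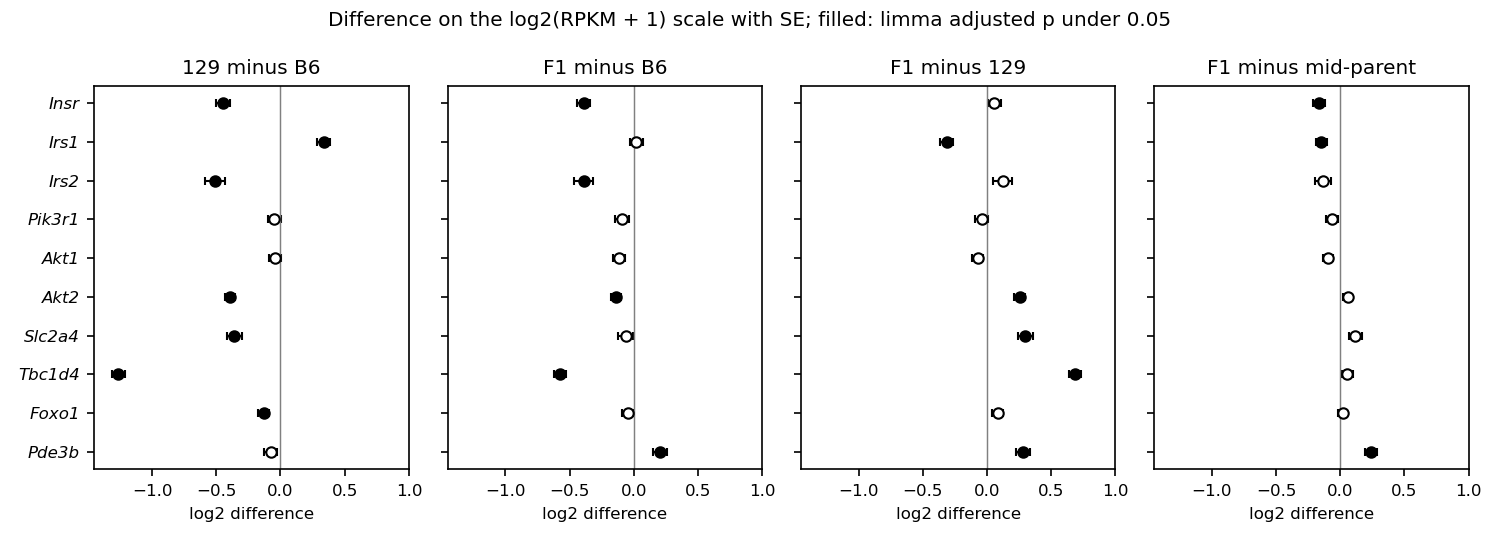
Differences of the 10 genes on the log2(RPKM + 1) scale with standard errors, for the parental strains, for F1 against each of them and for F1 against the mid-parent; filled points have a limma adjusted p under 0.05. Tbc1d4 stands furthest from 0 in the first 3 panels, and Pde3b is the only filled point to the right of 0 in the last.

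The F1 libraries were compared with each parent, in contrasts that share the F1 libraries with each other and the B6 or 129 libraries with the parental contrast. Against B6, 4 members were lower (Insr, Irs2, Akt2 and Tbc1d4) and 1 higher (Pde3b), beside 20.2% lower and 11.0% higher of all genes. Against 129, 4 were higher (Akt2, Slc2a4, Tbc1d4 and Pde3b) and 1 lower (Irs1), beside 12.0% higher and 15.7% lower of all genes. Libraries did not overlap for 6 members in each of these comparisons, where 44.2% and 44.5% of all genes did not. Where the parental difference held in every setting tried, F1 took different places between the parents. On the RPKM scale, with the parental means taken as fixed, F1 lay 6.04% of the way from B6 to 129 for Irs1 (-16.7% to 28.5% over its 3 libraries) and 20.1% for Slc2a4 (9.25% to 25.7%). It lay at 38.1% for Akt2 (26.6% to 45.9%), 56.3% for Tbc1d4 (50.2% to 63.6%), 78.8% for Irs2 (58.8% to 107%) and 88.5% for Insr (71.8% to 110%). These places carry the spread of the F1 libraries only, and the test against the midpoint follows.

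The mid-parent value averages both parents on the log2 scale and is what additive inheritance on that scale would give. Of all genes, 8.35% were above it in F1 and 14.8% below. Pde3b was above it by 0.24 (SE 0.05, adjusted p = 0.00409), at 1.19 times the mean parental RPKM, and it passed in all 15 other settings. Insr (-0.17, adjusted p = 0.0268) and Irs1 (-0.15, adjusted p = 0.0336) were below it, but both calls were lost after rescaling (-0.13 and -0.11, adjusted p = 0.0643 and 0.0880). Both were lost without B6 replicate 1, 129 replicate 1, 129 replicate 2 or F1 replicate 1 as well. The call of Insr was also lost without F1 replicate 3, and that of Irs1 without B6 replicate 3 or F1 replicate 2, with no filter and with the replicate block, with adjusted p from 0.0157 to 0.102 for Insr and 0.0168 to 0.131 for Irs1 over all settings. The other 7 members did not depart from it beyond the threshold, among them Tbc1d4 (0.06, interval -0.04 to 0.15), Akt2 (0.06, interval -0.02 to 0.14), Slc2a4 (0.12, adjusted p = 0.127) and Irs2 (-0.13, adjusted p = 0.167).

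Beyond the 10 members, 150 of 158 other genes of the pathway, in 8 lists, were tested. In 129 against B6, 22 were higher and 45 lower, with a median log2 difference of -0.08, or 25 and 33 after rescaling. In F1 the counts were 25 higher and 37 lower against B6 (37 and 27 after rescaling), and 35 and 17 against 129 (41 and 14). Of all genes tested, 15.9% were higher and 21.7% lower in 129 against B6. For F1 the shares were 11.0% and 20.2% against B6, and 12.0% and 15.7% against 129. These shares belong beside the counts of each list below. The lists were written with earlier results of these data known, and no list was tested against the shares. The same rescaling moved the counts over all genes in 129 against B6 from 1834 higher and 2499 lower to 2257 and 1995. For F1 against B6 it moved them from 1270 and 2329 to 1904 and 1591, and for F1 against the mid-parent value from 964 and 1712 to 1425 and 1250.

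At the receptor, 4 of 24 genes were higher and 8 lower in 129 than in B6, or 4 and 7 after rescaling. Ide, the insulin-degrading enzyme, fell from 33.7 ± 0.444 to 17.7 ± 0.824 RPKM (log2 difference -0.90, adjusted p = 1.63e-07), with F1 at 29.9 ± 1.35. Cbl, an adaptor and ubiquitin ligase that the receptor phosphorylates, fell from 8.75 ± 0.341 to 3.65 ± 0.256 RPKM (-1.07, adjusted p = 2.04e-05), with F1 at 5.04 ± 1.03. Of 12 genes of phosphoinositide signalling 2 were higher and 2 lower, or 3 and 1 after rescaling. The catalytic subunit Pik3cb was at 0.742 of B6 (-0.38) and Pdpk1, the kinase that activates AKT, at 1.15 of B6 (0.20). Pik3c2a also passed (0.20, adjusted p = 0.0302), but not with no filter or without B6 replicate 1, B6 replicate 3, 129 replicate 1 or 129 replicate 2.

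Among AKT regulators and mTOR genes, 1 of 26 was higher and 10 were lower in 129, or 1 and 7 after rescaling. Mtor, the kinase of both mTOR complexes, went from 20.8 ± 0.315 to 13.6 ± 0.815 RPKM (-0.58, adjusted p = 1.00e-05) and its inhibitor Deptor from 9.70 ± 0.168 to 5.30 ± 0.370 (-0.77, adjusted p = 5.15e-06). In F1 they stood between the parents, at 16.8 ± 0.941 and 6.87 ± 0.596 RPKM. The gene that rose was Trib3, a pseudokinase that binds AKT and is induced by stress, at 1.65 times B6 in 129 (0.67, adjusted p = 3.60e-05) and 1.84 times in F1 (0.82, adjusted p = 2.30e-05).

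GLUT4 traffic had 5 of 30 genes higher and 8 lower in 129, or 5 and 7 after rescaling. The small GTPase Rhoq (TC10) was at 0.729 of B6 (-0.44), Ralgapa2, a subunit of a RAL-inhibiting complex that AKT phosphorylates, at 0.694 (-0.49), and the sorting receptor Sort1, a component of GLUT4 vesicles, at 0.756 (-0.40). Sort1 had 51.3 ± 3.34 RPKM in F1, beside 50.5 ± 1.13 in 129 and 66.8 ± 1.05 in B6. For glycogen and GSK3 genes 2 of 12 were higher and 5 lower in 129 than in B6 (2 and 3 after rescaling), and in F1 against 129 9 were higher and 0 lower, also after rescaling. Ppp1r3b, which targets a phosphatase to glycogen, had 58.4 ± 1.96 RPKM in B6, 25.4 ± 1.66 in 129 and 43.5 ± 4.31 in F1 (129 minus B6 -1.17, adjusted p = 5.40e-07). The glycogen phosphorylase Pygb was at 0.680 of B6 in 129 (-0.53), and the branching enzyme Gbe1 at 1.26 times B6 (0.33).

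FOXO relatives and genes known as FOXO targets had 3 of 18 higher and 4 lower in 129, or 5 and 2 after rescaling. Pck1, an enzyme of glyceroneogenesis that insulin represses in liver and fat, was 2.37-fold higher in 129 (1.14, adjusted p = 1.42e-07) and 2.32-fold higher in F1 than in B6 (1.11, adjusted p = 5.81e-07). Ccng2, a cyclin, was 1.62-fold and 1.52-fold higher, while the sestrin Sesn1 was at 0.768 and 0.782 of B6. These 3 genes, taken from the list for the smallest p in 129 minus B6, did not move in 1 direction, and FOXO activity was not tested. Of 12 genes of cyclic AMP breakdown and antilipolysis 2 were higher and 3 lower. Abhd15, a partner of PDE3B in adipocytes, was at 0.729 of B6 in 129 (-0.44) and 0.677 in F1 (-0.54, adjusted p = 3.12e-04), where Pde3b itself was highest. Prkar2b, a regulatory subunit of protein kinase A, was at 0.810 of B6 in 129 (-0.30), and Hcar2, an antilipolytic receptor, at 1.32 (0.32). In the MAPK branch 3 of 17 were higher and 5 lower in 129 (3 and 3 after rescaling), with Spry2, an inhibitor of the branch, at 1.39 times B6 (0.43) and the kinase Araf at 0.871 (-0.19).

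**Figure D4:**
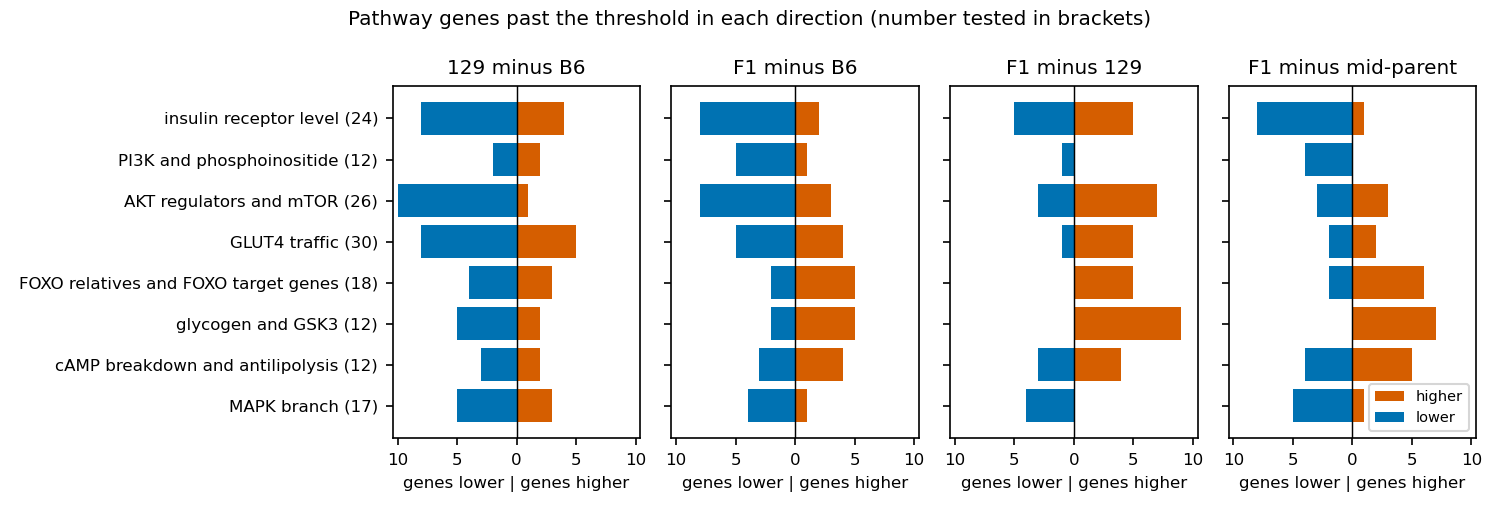
Number of genes past the threshold in 8 pathway lists, lower to the left and higher to the right of 0, for the 4 comparisons, with the number of genes tested in brackets. Lower genes outnumber higher ones by 10 to 1 among AKT regulators and mTOR genes in 129 minus B6, and 9 of 12 glycogen genes are higher in F1 minus 129. Of all genes tested, 21.7% were lower and 15.9% higher in 129 minus B6, and 12.0% were higher in F1 minus 129.

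The summed RPKM of the progenitor and fibroblast markers, carried mostly by the collagens Col1a1 and Col3a1, was higher in 129 than in both other groups without overlap. Single markers differed: Pdgfra had 77.4 to 87.0 RPKM in 129 against 40.1 to 48.4 in B6, whereas Ly6a had 334.1 to 345.6 against 362 to 498.1. Slc2a4 and Akt2 were lowest and Irs1 highest in the same 3 libraries. The part of these cells in those differences was not tested. Summed RPKM of the 11 adipocyte markers was 29150 to 33230 for B6, 33290 to 35680 for 129 and 37460 to 39710 for F1, a sum that Fabp4 dominates. Of these 11 markers 3 were higher and 2 lower in 129 than in B6, and 4 were higher and 1 lower in F1 than in B6. Single adipocyte markers went both ways. Adipoq was 1461 to 1587 RPKM for B6, 1259 to 1319 for 129 and 1324 to 1389 for F1. Car3 was 698.1 to 735.6 for B6, 954.1 to 1057 for 129 and 1018 to 1230 for F1.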

How the data were processed

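Poly(A) RNA of 9 libraries, 3 per group, was analysed from 1 deposited file per library. The authors deposited RPKM, as their file names say: multiplied by exon length in kilobases, the values sum to 1000000 in every library. Per the submitters' processing notes, STAR and genome build mm9 were used. No source used here gives the counter, annotation release, versions or filters. mm9 is a C57BL/6J assembly, and how many reads of 129 alleles failed to align was not tested. From the steps of the values, whole reads were recovered (tolerance 0.1 read). Replicate libraries differed by 3.83 to 15.1 times counting noise (chi-square over its degrees of freedom), so none was a copy. Of the 24013 symbols, 2 stood on more than 1 row and the row with the highest mean was used. The 5 columns without a name, mostly empty, were not used.

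Genes reaching an RPKM of 1 in 3 or more libraries were tested on log2(RPKM + 1), a scale on which changes of low genes come out too small, with limma 3.58.1 in R 4.3.3 (1 mean per group, mean-variance trend, two-sided, Benjamini-Hochberg over 11542 genes, threshold 0.05). Errors are SD of RPKM or SE of log2 differences. Permutation tests were exact and two-sided (scipy 1.17.1). The scripts were tested on simulated data, where somewhat more unchanged genes were called than the threshold is meant to allow, so calls close to it are less sure. Alternatives were a pseudocount of 0.1, no filter, a mean RPKM of at least 5, median-of-ratios rescaling, voom on recovered reads, the replicate number as a block, only the groups compared, and leaving out each library. Named genes were the members, close relatives, up to 3 genes per pathway list past the threshold with the smallest p in 129 minus B6, and the 3 genes most like Slc2a4 and Irs1; some of these are not reported here. The members and lists were chosen with earlier results of these data known. Promoter windows are RefSeq's, matched by symbol.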

Additional observations from a re-analysis of the deposited data

How the results depend on the processing

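Over the members, comparisons and other settings, 599 values kept their side of the threshold, 29 lost a call and 2 gained one, and no called value changed sign. Tbc1d4, Insr, Irs2, Akt2, Slc2a4 and Irs1 in 129 minus B6 passed in all 16 other settings. The 2 members below the mid-parent value became 1 with no filter, 1 with the replicate block, 0 after rescaling by median-of-ratios factors, and 0 to 2 when 1 library was left out. The 1 member above B6 in F1 became 0 to 1, lost without B6 replicate 1. Over all genes, those lower in F1 minus 129 went from 1813 to 1203 at a mean RPKM of at least 5, where fewer genes were tested. Leaving out 1 library gave 642 to 1084 genes above and 1117 to 1964 below the mid-parent value, beside 964 and 1712, with the lowest counts without F1 replicate 1 and F1 replicate 3. Deviations from the group mean correlated at -0.192 to 0.215 for the 9 same-numbered pairs of libraries of different groups, and at -0.203 to 0.231 for the 18 other pairs. Between B6 and 129, the same-numbered pairs had 0.0664, 0.125 and 0.215, and the other pairs -0.174 to 0.052. Same-numbered pairs with F1 had -0.192 to 0.129. Whether a replicate number marks a shared culture or batch was not tested. Of the members' calls, the replicate block ended that of Irs1 against the mid-parent value. It also ended the call of Foxo1 in 129 minus B6 and gave one to Akt1 in F1 minus B6. Each member had at least 531 reads per library, and how much counting error adds to the spread of the low members was not tested.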
